A study of Mus musculus with 2 samples.

Results

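The 10 genes described here encode secreted cytokines and chemokines of the front of the mouse eye: Cxcl1, Cxcl2, Csf3, Ccl20, Ccl2, Cxcl12, Cxcl14, Il1a, Il1rn and Il18. They were taken by symbol from a single-cell matrix of 27998 features, each symbol matching 1 feature; the rule that lists them uses no measured value, but the list was drawn up with earlier results of these data known. Each gene was followed through 5 groups of cells set by the level of a few other genes in each cell, in CPM, the UMIs (unique molecular identifiers, 1 for each RNA molecule read) of a gene per 1000000 UMIs of the cell. Limbal cells had at least 500 CPM of Gpha2 with at least 2000 CPM of Krt14. Basal cells had at least 2000 CPM of Krt14 with at least 8000 CPM of Krt12. Wing cells had at least 20000 CPM of Krt12 with under 2000 CPM of Krt14. Surface cells had at least 1000 CPM of Lce3a, and stromal cells had at least 5000 CPM of Dcn.

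Cells came from the anterior segment of 2 female C57BL/6 littermates of 28 days, 1 Beclin1 +/- mouse, heterozygous for the autophagy gene Becn1, and 1 WT mouse, both labelled healthy. Lens, retina, iris and most conjunctiva had been cut away, and the rims were digested with collagenase and then trypsin before droplet single-cell RNA sequencing on the 10x Genomics system. Each genotype was 1 animal and 1 library, so genotype, animal and library cannot be told apart, no test between genotypes was possible, and every interval below covers counting error only. After removal of predicted doublets the Beclin1 +/- library held 4942 cells and the WT library 2462.

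The layers held, for Beclin1 +/- and WT, 364 and 230 limbal cells, 1438 and 807 basal cells, 969 and 511 wing cells, 114 and 51 surface cells, and 1322 and 551 stromal cells. A further 721 Beclin1 +/- and 304 WT cells passed no gate, and 14 and 8 cells passed gates that exclude each other and were left out of the layers. Cells were shallower in the Beclin1 +/- library in each of the 5 layers, with a median of 10250 UMIs per limbal cell against 14525 in WT, and 8160 per stromal cell against 11643 in WT. The lowest barcode had 5430 UMIs in Beclin1 +/- and 8089 in WT, and the libraries shared 15 barcode sequences. Becn1 itself was read at near-equal levels in both libraries, with log2 ratios between -0.19 and 0.15 over the layers; the altered part of the gene is not given in the sources used here, so this does not check the genotype.

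Genes that the gates did not use placed the limbal, surface and stromal groups where their names put them. Krt15, a keratin of limbal and basal cells, stood at 4032 CPM in Beclin1 +/- and 5144 CPM in WT limbal cells, against 845 and 797 CPM in basal cells. Psca, a surface protein, reached 33121 and 36967 CPM in surface cells, and the corneal proteoglycan gene Lum 4999 and 4961 CPM in stromal cells. The basal and wing groups were parted less cleanly. Col17a1, a hemidesmosome collagen, was higher in basal cells (576 and 644 CPM) than in wing cells (317 and 435 CPM), yet Krt5 was higher in wing cells (6594 and 7486 CPM) than in basal cells (4021 and 4441 CPM). The differentiation keratin Krt78 was at 51.5 and 64.6 CPM in wing cells, against 2.59 and 1.17 CPM in basal cells. Aldh3a1, also chosen to check the wing group, went the other way. It was at 10046 and 11195 CPM in wing cells, against 13021 and 15331 CPM in basal cells. The pan-leukocyte gene Ptprc had no UMI in any layer except 0.219 CPM in Beclin1 +/- limbal cells, and the summed level of 6 leukocyte markers stayed at or below 14.4 CPM in every layer.

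As background, the cornea is kept clear and largely free of blood vessels, and its epithelium is renewed from the limbus, the rim where it meets the conjunctiva. CXCL1 and CXCL2 draw neutrophils through the receptor CXCR2, and CSF3 (G-CSF) drives the production and release of neutrophils. CCL20 draws CCR6-bearing lymphoid and dendritic cells, CCL2 draws monocytes through CCR2, and CXCL12 retains CXCR4-bearing cells. CXCL14 is a chemokine made by many resting epithelia and fibroblasts. IL-1α is an alarm cytokine held inside epithelial cells, IL-1RA (Il1rn) blocks its receptor, and IL-18 is made as a precursor that inflammasome caspases cut.

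All 10 genes had their highest layer in common between the libraries. The highest layer was limbal for Cxcl2, Csf3, Ccl20 and Il1rn, stromal for Cxcl1, Ccl2, Cxcl12 and Cxcl14, surface for Il1a, and wing for Il18. The neutrophil-directed genes were thus read from both the limbal epithelium and the stroma, while the interleukin 1 family genes had their highest layer in the epithelium.

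**Figure D1:**
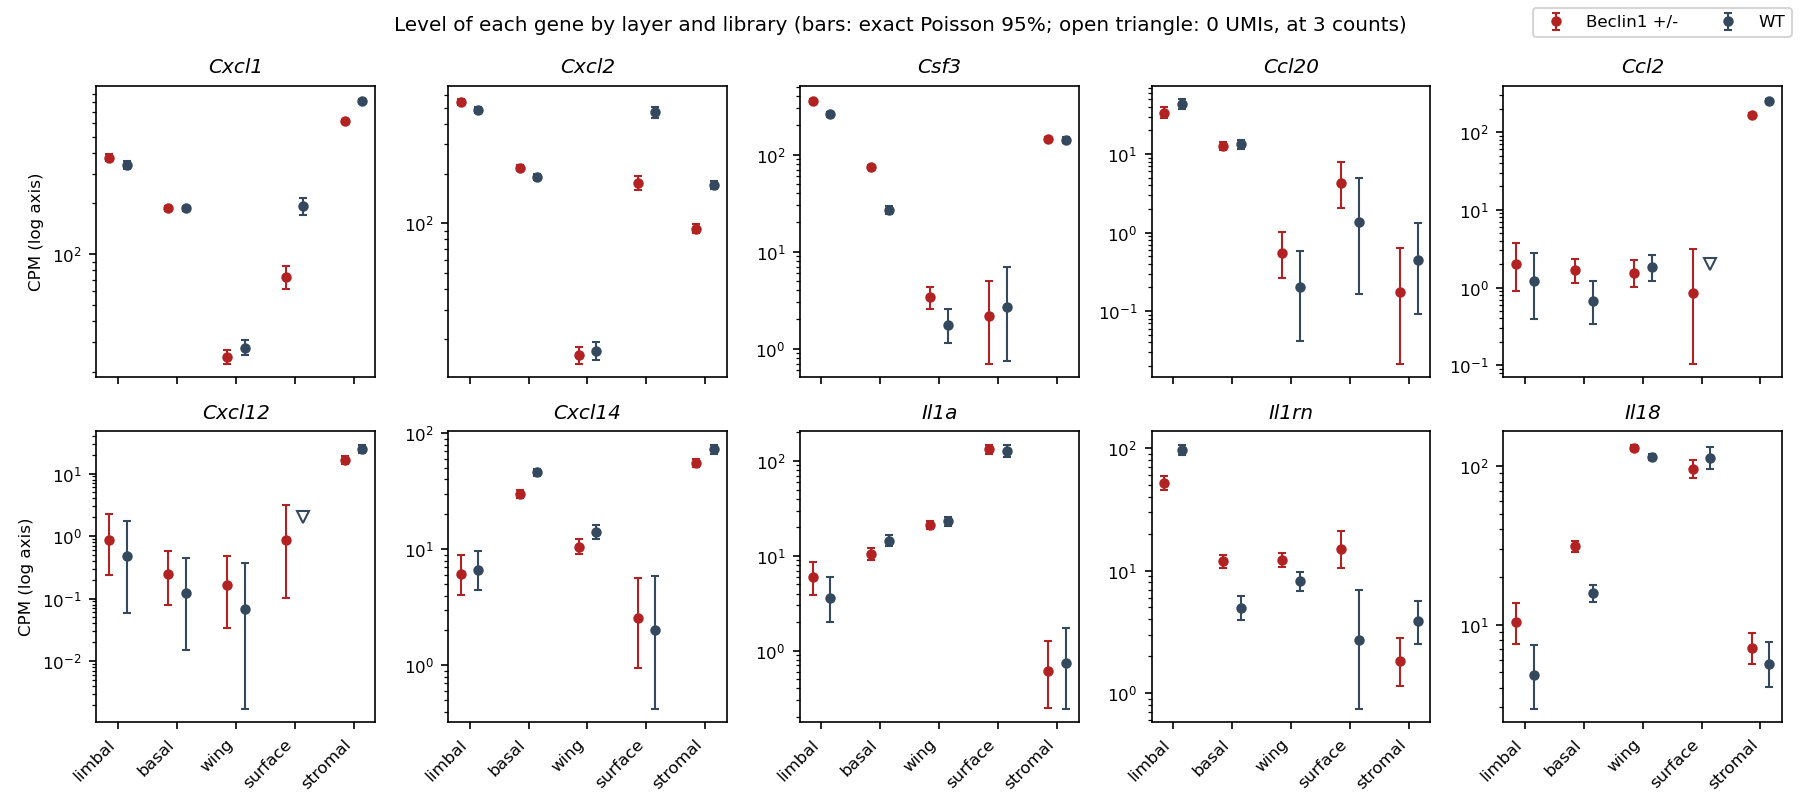
Level of each of the 10 genes in CPM (log axis) in limbal, basal, wing, surface and stromal cells of the Beclin1 +/- (red, left) and WT (dark, right) libraries. Points are summed counts and bars exact Poisson 95% intervals; open triangles mark 0 UMIs, drawn at 3 counts. Cxcl2, Csf3, Ccl20 and Il1rn are highest in limbal cells, Ccl2 and Cxcl12 stand out in stromal cells alone, Il1a climbs toward the surface, and Il18 is high in wing and surface cells.

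Cxcl1 (chromosome 5, 90891241 to 90893115, plus strand, mm10) and Cxcl2 (chromosome 5, 90903871 to 90905938, plus strand) are neighbours with 10755 bases between them. The 250 bases before each RefSeq start site (GRCm38.p6) are shown because both genes were read together in the same cells, and that of Ccl20 beside them because it was limbal too but sparse. Capitals mark every match on either strand to a broad NF-κB motif, GGGA and CC parted by any 4 bases, which includes all matches to a stricter one, GGGA and TTCC parted by any 2 bases.
Cxcl1, chr5:90890995-90891244, plus strand: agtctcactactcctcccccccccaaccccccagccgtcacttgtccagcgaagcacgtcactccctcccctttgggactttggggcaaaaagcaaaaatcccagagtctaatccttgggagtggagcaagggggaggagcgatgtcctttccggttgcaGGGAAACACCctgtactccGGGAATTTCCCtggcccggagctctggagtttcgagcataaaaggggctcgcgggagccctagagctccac
Cxcl2, chr5:90903649-90903898, plus strand: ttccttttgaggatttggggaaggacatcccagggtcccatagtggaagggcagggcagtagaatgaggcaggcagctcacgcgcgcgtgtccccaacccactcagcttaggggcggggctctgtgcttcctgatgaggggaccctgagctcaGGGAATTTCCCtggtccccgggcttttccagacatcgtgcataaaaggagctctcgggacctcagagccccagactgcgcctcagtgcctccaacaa
Ccl20, chr1:83116516-83116765, plus strand: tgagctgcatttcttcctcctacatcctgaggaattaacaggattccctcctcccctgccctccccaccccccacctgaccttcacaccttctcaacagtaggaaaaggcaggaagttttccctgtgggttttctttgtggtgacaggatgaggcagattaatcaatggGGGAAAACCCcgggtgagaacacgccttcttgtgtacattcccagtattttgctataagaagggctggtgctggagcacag
The stretch GGGAATTTCCC, which matches the stricter motif on both strands, began 71 bases before the start site of Cxcl1 and 97 bases before that of Cxcl2. Of the 10 genes 8 had an entry in the RefSeq table; 2 of the 8, Cxcl1 and Cxcl2, held the stricter motif, against 1.36% of 27025 genes. The broad motif was in 4 of the 8, Cxcl1, Cxcl2, Ccl20 and 1 of 3 start sites of Il1rn, against 19.7% of genes. The AP-1 motif TGANTCA, searched in the same windows, was in Il1a and in the same start site of Il1rn, against 7.82% of genes. A match is a run of letters and not a measured binding site.

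In limbal cells Cxcl1 stood at 374 CPM in Beclin1 +/- (95% interval 356 to 392) and 338 CPM in WT (321 to 356). Basal cells held 187 CPM in each library, and wing cells the least, 24.5 CPM in Beclin1 +/- and 27.8 CPM in WT. Surface cells held 73.1 CPM in Beclin1 +/- and 192 CPM in WT. Stromal cells held the most, 617 CPM in Beclin1 +/- (602 to 631) and 811 CPM in WT (790.0 to 833). The intervals of neighbouring layers did not overlap in either library, with the exception of surface and basal cells in WT. By quantity of transcripts, stromal cells supplied 46.0% of all Cxcl1 UMIs in Beclin1 +/- and 45.4% in WT, and basal cells 25.1% and 25.4%.

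Cxcl2 was more strongly epithelial. Its level was 539.9 CPM in Beclin1 +/- and 485 CPM in WT limbal cells, 217 and 191 CPM in basal cells, 16 and 16.9 CPM in wing cells, 176 and 469 CPM in surface cells, and 92.9 and 171 CPM in stromal cells. In WT the limbal and surface intervals overlapped, and under 5 of the 11 alternatives tried, wider and narrower gates among them, the surface layer was the highest for Cxcl2 in WT, as it was in Beclin1 +/- with median-of-ratios scaling. A single surface cell carried 231 of the 410 surface UMIs in Beclin1 +/- (56.3%), and a single one 382 of 692 in WT (55.2%). Without that cell the surface level was 77.7 CPM in Beclin1 +/- and 217 CPM in WT.

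Csf3 (chromosome 11, 98701263 to 98703629, plus strand) was highest in limbal cells and next highest in stromal cells. It stood at 353 CPM in Beclin1 +/- (336 to 371) and 260.0 CPM in WT (245 to 276) limbal cells, 74.1 and 26.7 CPM in basal cells, 3.38 and 1.75 CPM in wing cells, 2.15 and 2.71 CPM in surface cells, and 145 and 141 CPM in stromal cells. The stromal level was 41.0% of the limbal level in Beclin1 +/- and 54.1% in WT. Stromal cells supplied 29.1% and 28.9% of all Csf3 UMIs, limbal cells 28.4% and 33.3%, and basal cells 26.8% and 13.3%. Of 4 abundant epithelial genes, stromal cells held Krt14 at 2.37% and 1.56% of its highest level, Krt12 at 3.23% and 2.07%, Krt5 at 3.31% and 2.19%, and Aldh3a1 at 22.3% and 16.7%. The part of free RNA in the stromal Csf3 level was not tested.

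With every cell thinned to 5000 UMIs, at least 1 Csf3 UMI was found in 41.8% of Beclin1 +/- and 37.8% of WT limbal cells, in 10.4% and 5.82% of basal cells, and in 16.6% and 14.9% of stromal cells. In surface cells the thinned share was 0.877% and 0.0%, at median depths of 19923 and 29704 UMIs. Unthinned, the limbal shares were 54.7% and 52.6%, and the surface shares 4.39% and 7.84%. No cell was too shallow for the thinning.

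Ccl20 (chromosome 1, 83116766 to 83119167, plus strand) was highest in limbal cells, where few cells held it. Its level was 33.6 CPM in Beclin1 +/- and 43.1 CPM in WT limbal cells, 12.7 and 13.3 CPM in basal cells, 0.555 and 0.202 CPM in wing cells, 4.30 and 1.36 CPM in surface cells, and 0.176 and 0.447 CPM in stromal cells. Limbal cells supplied 25.7% and 38.5% of all Ccl20 UMIs, basal cells 43.5% and 46.2%, and cells past no gate 27.2% and 13.7%. A thinned UMI was found in 8.24% of Beclin1 +/- and 6.96% of WT limbal cells. The tenth of limbal cells with the most Ccl20 held 95.4% and 98.3% of its limbal UMIs, and without the single highest cell the limbal levels were 29.3 CPM in Beclin1 +/- and 23.8 CPM in WT.

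Layers were compared where a gene averaged 20 CPM or more over both layers in each library, and a gene under 20 CPM in one of them entered through the layer where it was high, so that its direction was fixed by this minimum. Set against basal cells, limbal cells were at least 1.5-fold higher in both libraries for Cxcl1, Cxcl2 and Csf3, which passed 20 CPM in both layers. Ccl20 and Il1rn, under 20 CPM in basal cells, entered through limbal cells. Of all 4084 genes compared 6.46% were higher and 5.73% lower. For Csf3 the limbal over basal log2 ratio was 2.25 in Beclin1 +/- and 3.28 in WT, for Cxcl2 1.31 and 1.34, and for Cxcl1 1.00 and 0.85.

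Wing cells were lower than basal cells for Cxcl1, with log2 ratios of -2.93 in Beclin1 +/- and -2.75 in WT. Cxcl2 and Cxcl14 entered that comparison through basal cells, and Il18, higher in wing cells, through wing cells in WT; 11.9% of genes were lower and 14.6% higher. Surface cells were higher than wing cells for Cxcl1, with log2 ratios of 1.58 and 2.79, and for Il1a. Cxcl2 entered through surface cells, and 15.9% of genes were higher and 63.4% lower. Along the epithelium Cxcl1 and Cxcl2 were thus lowest in the wing layer in both libraries, with higher levels in the limbal and surface layers on either side.

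Limbal cells also past the basal gate numbered 102 in Beclin1 +/- and 45 in WT, and a split of the layer on that property was made after the values were seen. Cells not past the basal gate were at least 1.5-fold higher in both libraries for Il1rn, at 62.8 CPM in Beclin1 +/- and 109 CPM in WT, against 32.0 and 41.3 CPM in cells past it. Ccl20, at 44.7 and 51.7 CPM against 12.2 and 4.0 CPM, entered through the cells not past the gate. Of all genes compared 3.88% were higher and 2.43% lower. Cxcl1 was at 457 CPM in Beclin1 +/- and 322 CPM in WT limbal cells not past the basal gate, and at 214 and 413 CPM in those past it. Cxcl2 differed between the libraries in the same way, at 619 and 441 CPM against 389 and 686 CPM. The libraries were thus in opposite order in the subsets, for both genes. Of the 45 WT cells past the basal gate, 1 held 204 of the 515 Cxcl2 UMIs; without the highest cell the levels there were 347 CPM in Beclin1 +/- and 422 CPM in WT.

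**Figure D2:**
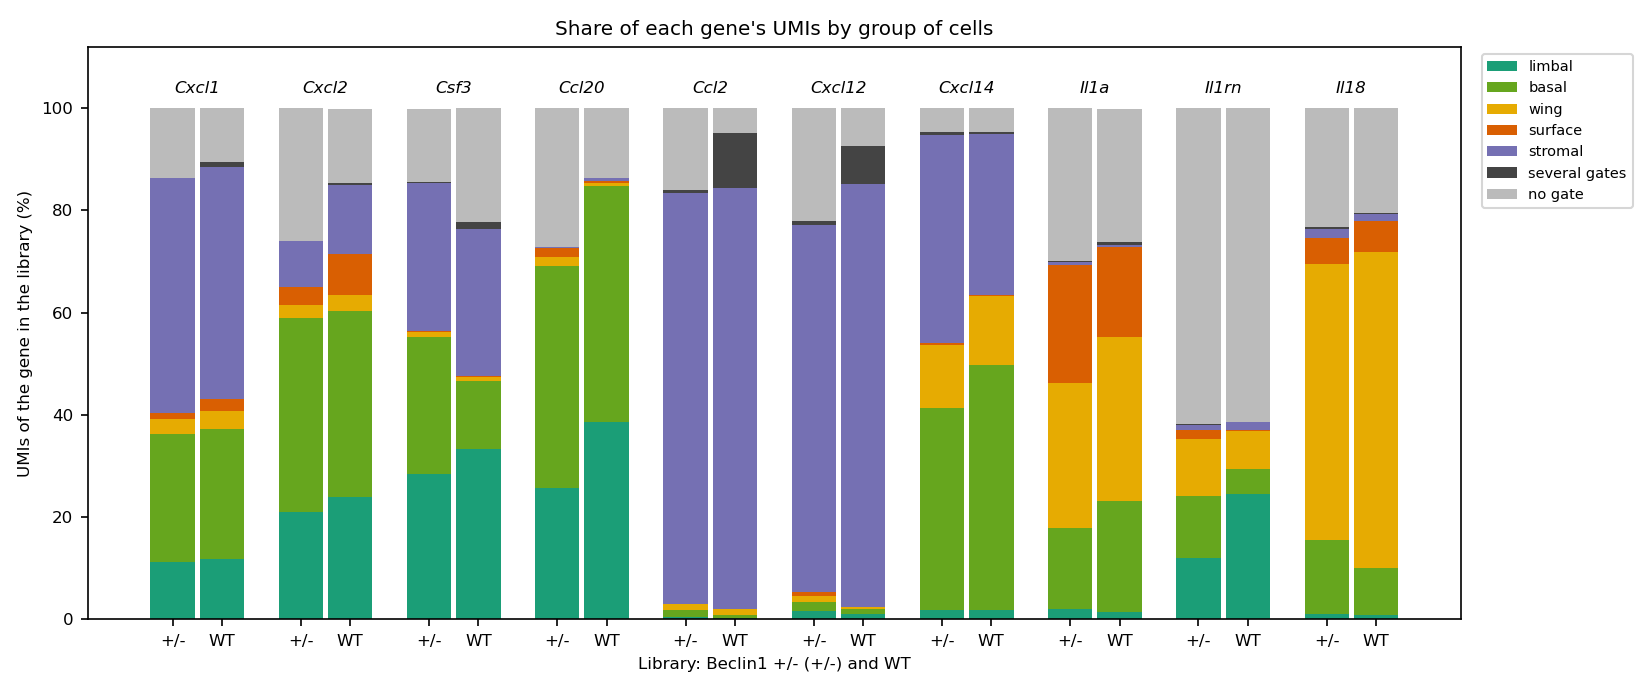
Share in percent of each gene's UMIs that came from limbal, basal, wing, surface and stromal cells, from cells past several gates and from cells past no gate; for each gene the left bar is the Beclin1 +/- library and the right bar WT. Stromal cells supply most Ccl2 and Cxcl12, wing cells most Il18, and cells past no gate most Il1rn.

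Cxcl1 and Cxcl2 were found in the same cells. After thinning, Cxcl2 was detected in 66.1% of limbal cells with a Cxcl1 UMI in Beclin1 +/- and 61.2% in WT, against 20.1% and 23.5% of limbal cells without one. In basal cells the shares were 45.8% and 43.9% with Cxcl1, against 10.2% and 8.49% without. Csf3 was detected in 57.0% and 50.0% of Cxcl1-bearing limbal cells, against 29.1% and 28.8% of the others. Across limbal cells (364 in Beclin1 +/-, 230 in WT, on log-scaled counts) the genes most like Cxcl2 were Cxcl1, with a Pearson r of 0.66 and 0.67, Csf3, with 0.34 and 0.34, and the placenta-expressed transcript Plet1, with 0.32 and 0.33. These are descriptions over cells of 1 library each, which share depth.

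Il1rn was found more often in limbal cells without Cxcl1. Cxcl1 was detected in 23.4% of limbal cells with an Il1rn UMI in Beclin1 +/- and 30.8% in WT, against 48.6% and 45% of limbal cells without. The 95% intervals for the Beclin1 +/- shares were 12.3% to 38.0% and 43.0% to 54.2%, while those for WT overlapped (17.0% to 47.6% and 37.8% to 52.4%). The genes most like Il1rn in limbal cells were Gsto1, a glutathione transferase, with r of 0.48 and 0.45, the stress keratin Krt6a, with 0.43 and 0.47, and Ceacam1, with 0.42 and 0.45.

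The immediate early genes are 16 transcription factors and other genes that switch on within minutes of a stimulus such as dissociation. Beside Cxcl1 they were higher in stromal, wing and surface cells and lower in limbal and basal cells. Stromal cells with a Cxcl1 UMI held on average 88.2 UMIs of the 16 genes in Beclin1 +/- and 91.3 in WT, against 29.9 and 45.9 in stromal cells without. Limbal cells with Cxcl1 held 30.7 and 31.2, against 36.5 and 39.4 without, and basal cells 28.5 and 34.2, against 30.9 and 40.2. Wing cells with Cxcl1 held 38 and 45, against 31 and 35 without. Surface cells with it, 22 in Beclin1 +/- and 15 in WT, held 33.9 and 38.1, against 30 and 35. For the 20 genes of the NF-κB pathway list the stromal means were 17.0 and 15.5 UMIs with Cxcl1, against 5.41 and 6.64 without, and the limbal means 10.2 and 11.3, against 8.87 and 9.33. The genes most like Cxcl1 across stromal cells were the NF-κB inhibitor Nfkbia (r 0.54 in Beclin1 +/- and 0.52 in WT), the RNA-decay factor Zfp36 (0.59 and 0.48) and the stress phosphatase subunit Ppp1r15a (0.48 and 0.46). What part tissue digestion had in these levels was not tested.

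**Figure D3:**
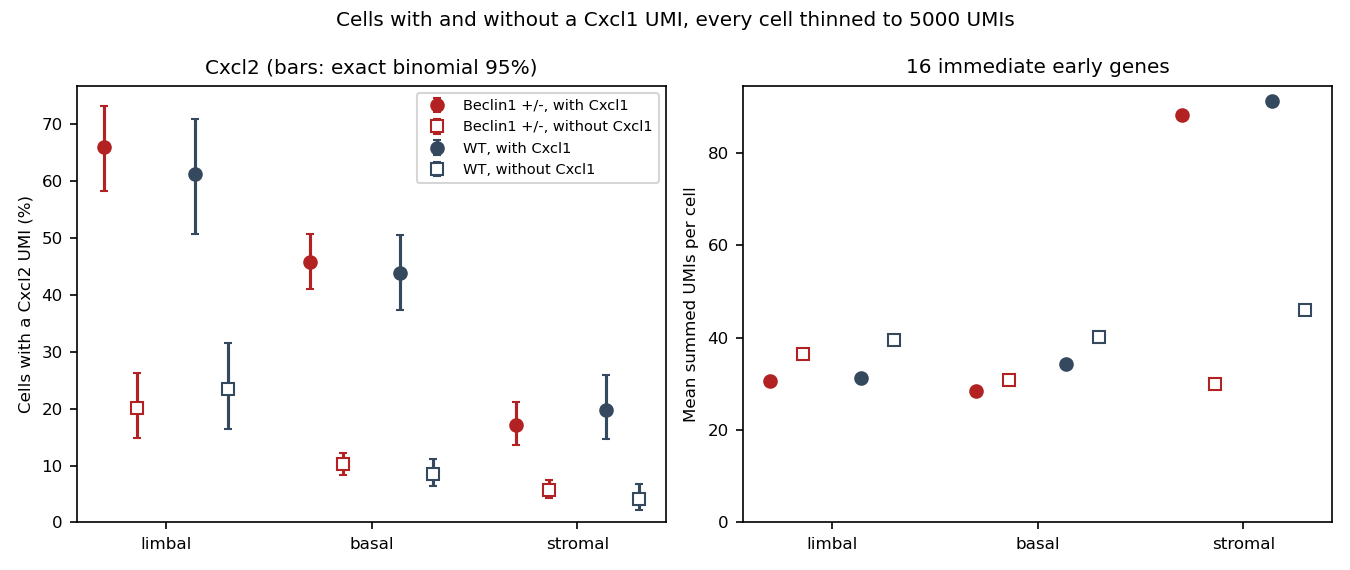
Left, percent of limbal, basal and stromal cells with a Cxcl2 UMI, among cells with (filled) and without (open) a Cxcl1 UMI, with exact binomial 95% intervals; right, mean summed UMIs of 16 immediate early genes in the same cells. Red is Beclin1 +/- (left) and dark WT (right), and every cell is thinned to 5000 UMIs. Cxcl2 accompanies Cxcl1 in all 3 groups, while the immediate early genes stand higher beside Cxcl1 in stromal cells and slightly lower in limbal and basal cells.

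Ccl2 and Cxcl12 were stromal genes. Ccl2 (chromosome 11, 82035571 to 82037453, plus strand) stood at 169 CPM in Beclin1 +/- (161 to 176) and 254 CPM in WT (242 to 266) stromal cells, and at or under 1.98 CPM in every epithelial layer. WT surface cells had no Ccl2 UMI, where 3 counts would be 2.03 CPM and the exact Poisson upper limit was 2.5 CPM. Cxcl12 (chromosome 6, 117168535 to 117181367, plus strand) stood at 16.5 and 25.0 CPM in stromal cells and at or under 0.878 CPM in the epithelial layers that had a UMI. WT surface cells had no Cxcl12 UMI, with the same upper limit of 2.5 CPM. Stromal cells gave 80.3% and 82.3% of all Ccl2 UMIs; in WT the 8 cells past conflicting gates gave another 10.7%. In epithelial layers Ccl2 was at 0 to 1.17% of its stromal level with at most 34 UMIs in a layer. The stromal genes Lum, Kera, Col1a1 and Col1a2 were at 0.156% to 1.08% of theirs.

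Cxcl14 (chromosome 13, 56288643 to 56296551, minus strand) was shared between stroma and corneal epithelium. It stood at 6.15 CPM in Beclin1 +/- and 6.70 CPM in WT limbal cells, 29.9 and 46.1 CPM in basal cells, 10.5 and 14.1 CPM in wing cells, 2.58 and 2.03 CPM in surface cells, and 55.1 and 73.1 CPM in stromal cells. The basal level was 54.3% and 63.0% of the stromal level, against 0.223% to 0.368% for Lum, Kera, Col1a1 and Col1a2. Within the epithelium Cxcl14 was lowest in the limbal and surface layers, whose intervals overlapped. A thinned UMI was found in 12.4% of Beclin1 +/- and 17.1% of WT basal cells, but in 3.02% and 2.61% of limbal cells.

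Against basal cells, stromal cells were at least 1.5-fold higher in both libraries for Cxcl1, Csf3 and Cxcl14, while Ccl2 entered through stromal cells; 30.7% of genes were higher and 24.8% lower. Against limbal cells they were higher for Cxcl1 and lower for Cxcl2 and Csf3. Ccl2 and Cxcl14 entered that comparison through stromal cells and Il1rn through limbal cells; 29.7% of genes were higher and 23.9% lower. For Cxcl14 in Beclin1 +/- the stromal over basal log2 ratio of 0.88 turned to -0.16 when only cells of at least 8089 UMIs were kept.

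The stromal cells were not uniform. Split after the values were seen at 1000 CPM of Kera, the keratocan gene of corneal keratocytes, 955 Beclin1 +/- and 406 WT cells were at or above the limit and 367 and 145 below it. Cells below it were at least 1.5-fold higher in both libraries for Cxcl1 and Cxcl2, which passed 20 CPM on both sides of the limit. Cxcl12, and Cxcl14 in Beclin1 +/-, were under 20 CPM in Kera-high cells and entered through Kera-low cells. Of all genes compared 10.7% were higher and 5.58% lower. Cxcl1 stood at 1239 CPM in Beclin1 +/- and 2255 CPM in WT Kera-low cells, against 409.8 and 416 CPM in Kera-high cells. Cxcl14 stood at 189.9 and 262 CPM in Kera-low cells, against 10.4 and 21.4 CPM in Kera-high cells, and Cxcl12 at 57.1 and 87.2 CPM against 3.04 and 7.97 CPM. Csf3 showed no such division, at 159 and 144 CPM against 140.0 and 139.7 CPM.

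The summed level of Ccl2 divided in WT alone. It stood at 149.8 CPM in Beclin1 +/- and 469 CPM in WT Kera-low cells, and at 175 and 195 CPM in Kera-high cells. Of the 145 WT Kera-low cells, 5 held at least 50% of their Ccl2 UMIs, and without the highest cell the level was 387 CPM. A thinned Ccl2 UMI was found in 20.7% (14.4% to 28.2%) of WT Kera-low cells. In WT Kera-high cells the share was 13.5% (10.4% to 17.3%), with an overlapping interval. In the WT Kera-low cells 4 genes listed as dendritic cell markers (Cd74, H2-Aa, H2-Ab1 and Cd207) summed to 437 CPM, against 10.2 CPM in Beclin1 +/-. The 6 leukocyte markers summed to 33.2 CPM, against 8.81 CPM in Beclin1 +/-, with Ptprc at 0 in both. The part of these markers in the levels of Ccl2 and Cxcl1 was not tested.

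**Figure D4:**
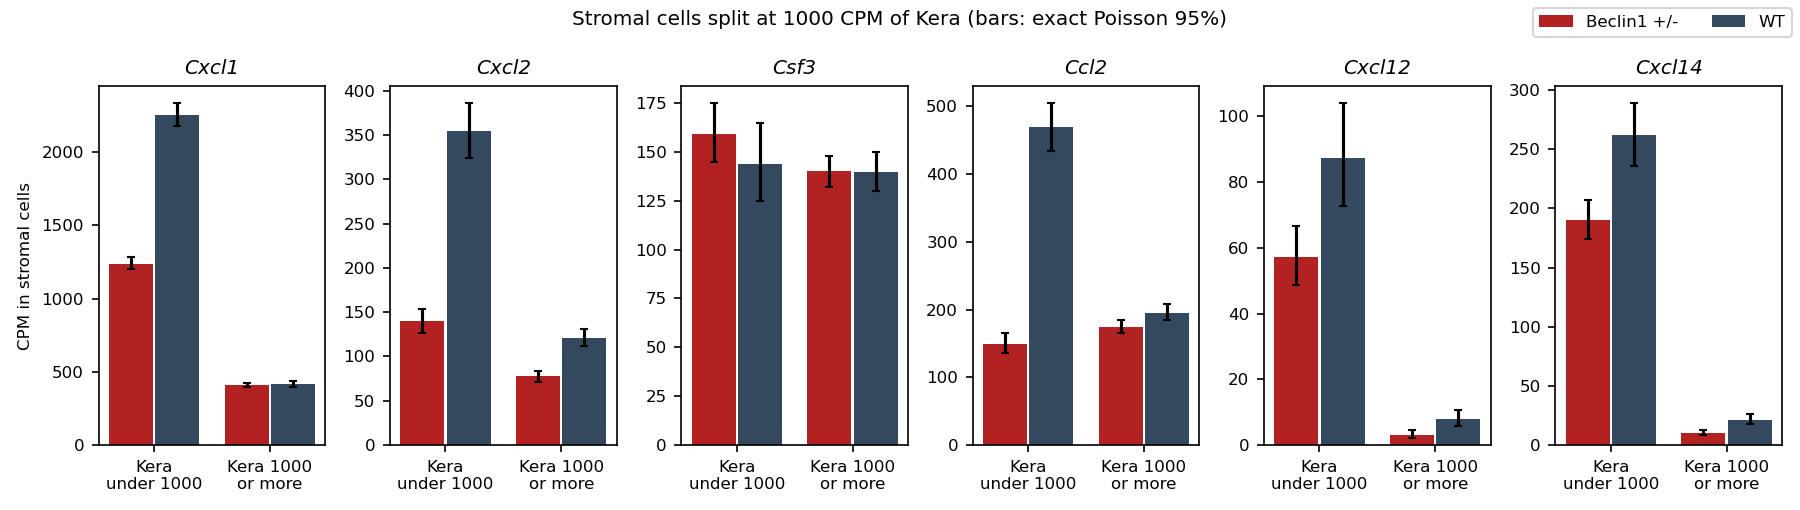
Level in CPM of 6 genes in stromal cells under 1000 CPM of Kera and in those at or above it, for Beclin1 +/- (red, left) and WT (dark, right); bars carry exact Poisson 95% intervals. Cxcl1, Cxcl2, Cxcl12 and Cxcl14 are higher in the Kera-low cells of both libraries, Csf3 is level, and Ccl2 is higher in Kera-low cells of WT alone.

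The genes most like Cxcl14 across stromal cells were the matrix protease Mmp3 (r 0.53 in Beclin1 +/- and 0.63 in WT), the enkephalin precursor Penk (0.50 and 0.57) and the growth factor binding protein Igfbp7 (0.49 and 0.57). Those most like Ccl2 were the neighbouring monocyte chemokine Ccl7 (0.31 and 0.47), the interferon-induced chemokine Cxcl10 (0.19 and 0.32) and Cxcl1 (0.18 and 0.29). Cxcl12-bearing stromal cells had a Cxcl1 UMI in 67.6% of cases in Beclin1 +/- and 78.8% in WT, against 29.3% and 34.9% of the other stromal cells.

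Il1a (chromosome 2, 129299610 to 129309972, minus strand) was higher in each epithelial layer from limbus to surface. It stood at 5.93 CPM in Beclin1 +/- and 3.59 CPM in WT limbal cells, 10.5 and 14.4 CPM in basal cells, 21.2 and 23.1 CPM in wing cells, 134 and 128 CPM in surface cells, and 0.615 and 0.745 CPM in stromal cells. The intervals of neighbouring layers did not overlap in either library. The surface over wing log2 ratio was 2.65 in Beclin1 +/- and 2.48 in WT. A thinned UMI was found in 40.4% and 35.3% of surface cells and in 0.303% and 0.0% of stromal cells, and no 1 surface cell held over 13.2% of the surface UMIs.

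Il18 (chromosome 9, 50554827 to 50581840, plus strand) was a gene of the wing and surface layers. It stood at 10.3 CPM in Beclin1 +/- and 4.79 CPM in WT limbal cells, 31.2 and 15.8 CPM in basal cells, 131 and 114 CPM in wing cells, 95.9 and 113 CPM in surface cells, and 7.11 and 5.66 CPM in stromal cells. The wing and surface intervals overlapped in WT, and with TMM or median-of-ratios scaling in place of total counts the surface layer was the highest in both libraries. It was spread widely, in that the tenth of wing cells with the most Il18 held 37.6% and 43.6% of its wing UMIs. The genes most like it across wing cells were Gsto1 (r 0.63 in Beclin1 +/- and 0.73 in WT), the keratin Krt6b (0.59 and 0.68) and the peptidoglycan-binding protein gene Pglyrp1 (0.58 and 0.66).

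Il1rn (chromosome 2, 24336853 to 24351494, plus strand) stood at 52.2 CPM in Beclin1 +/- (45.8 to 59.3) and 96.7 CPM in WT (87.5 to 107) limbal cells. Basal cells held 11.9 and 4.99 CPM, wing cells 12.3 and 8.20 CPM, surface cells 15.1 and 2.71 CPM, and stromal cells 1.84 and 3.87 CPM. Surface cells, where Il1a was highest, held 35 Il1rn UMIs in Beclin1 +/-, where the interval overlapped that of wing cells, and 4 in WT, where it overlapped that of stromal cells. Most Il1rn was outside the layers, as 61.9% of its UMIs in Beclin1 +/- and 61.4% in WT came from cells past no gate.

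Of 13 receptor genes of these ligands, 1 reached 20 CPM in any layer of both libraries. Il1r2, the decoy receptor that binds interleukin 1 without signalling, stood at 238 CPM in Beclin1 +/- and 197 CPM in WT surface cells, the layer with the most Il1a, and at or under 2.53 CPM in the other layers. Of 13 genes for processing and release, 4 reached that level. Pycard, the inflammasome adaptor, was highest in wing cells, at 394 and 335 CPM, the layer with the most Il18, and the protease gene Capn1 was at 162 and 175 CPM there. S100a13, which takes part in interleukin 1α release, was highest in stromal cells, at 244 and 248 CPM.

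Between the libraries, 23 of the 50 combinations of a gene and a layer averaged 20 CPM or more and were compared. At least 1.5-fold higher in Beclin1 +/- were 2 of the 23, where 1.5% of all gene and layer pairs were. At least 1.5-fold lower were 7 of the 23, where 1.81% of all pairs were. Il18 in basal cells, among the higher, passed the 20 CPM mean through Beclin1 +/-, and Cxcl12 in stromal cells, among the lower, through WT. Their direction was thus fixed by this minimum. Cxcl1 and Cxcl2 in surface cells were also among the lower, and in that layer 7.71% of genes were lower. The median log2 ratio of all genes compared lay between -0.05 and -0.01 over the layers.

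**Figure D5:**
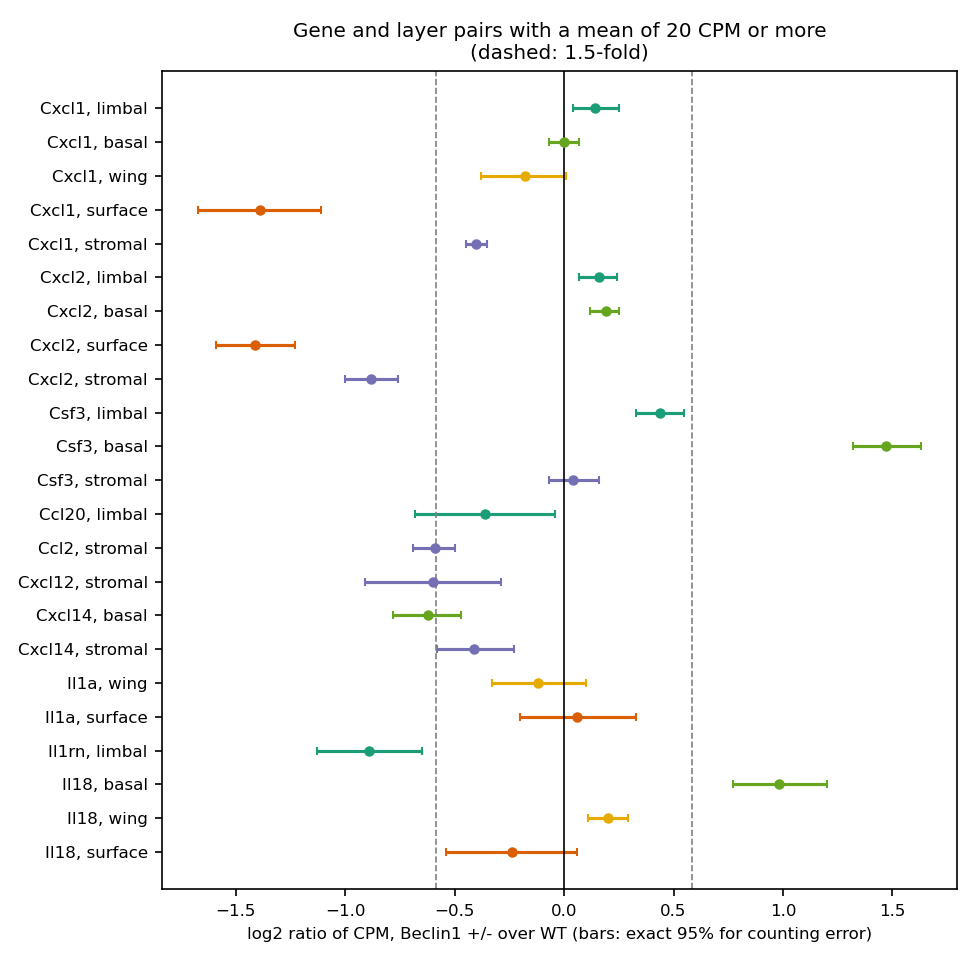
Log2 ratio of the level in Beclin1 +/- over WT for the 23 gene and layer pairs with a mean of 20 CPM or more, with exact 95% intervals for counting error; colours mark layers and dashed lines 1.5-fold. Csf3 and Il18 in basal cells lie to the right, Cxcl1 and Cxcl2 in surface cells farthest to the left.

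In basal cells Csf3 was at 74.1 CPM in Beclin1 +/- and 26.7 CPM in WT, a log2 ratio of 1.47 (95% interval 1.32 to 1.63), and the ratio was 1.57 without the highest cell of each library and 0.74 with all gate limits doubled. Il18 was at 31.2 CPM in Beclin1 +/- and 15.8 CPM in WT, a log2 ratio of 0.98 (0.77 to 1.20), and passed the 20 CPM mean through Beclin1 +/-. Cxcl14 was at 29.9 CPM in Beclin1 +/- and 46.1 CPM in WT, a log2 ratio of -0.62 (-0.78 to -0.47), which was -0.58 with median-of-ratios scaling. In basal cells 2 of the 5 members compared were thus higher and 1 lower, where 0.992% of genes were higher and 0.387% lower (1.38% in either direction).

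In surface cells Cxcl1 was at 73.1 CPM in Beclin1 +/- and 192 CPM in WT, a log2 ratio of -1.39 (-1.67 to -1.11), and Cxcl2 at 176 and 469 CPM, a log2 ratio of -1.41 (-1.59 to -1.23). Without the highest cell of each library the ratios were -1.11 and -1.48. Even so, 12 Beclin1 +/- and 6 WT surface cells held 98% and 99.1% of the surface Cxcl2 UMIs. A thinned Cxcl2 UMI was found in 8.77% (4.29% to 15.5%) and 11.8% (4.44% to 23.9%) of surface cells. For Cxcl1 these shares were 19.3% (12.5% to 27.7%) and 29.4% (17.5% to 43.8%). The intervals overlapped for both genes. Il1a, with a log2 ratio of 0.06 (-0.20 to 0.33), and Il18, at -0.24 (-0.54 to 0.06), did not differ by 1.5-fold. With 114 and 51 cells this layer was the thinnest, and 5.74% of its genes were higher and 7.71% lower by 1.5-fold, 13.5% in all. Of 13 NF-κB pathway genes compared in surface cells 0 were higher and 3 lower by that margin, among them Nfkbia, at 868 CPM in Beclin1 +/- and 1596 CPM in WT, and Nfkbiz, at 197 and 357 CPM; the list's median log2 ratio was -0.13. Of 10 immediate early genes compared there 0 were higher and 4 lower, among them Ier3 (1010 and 1701 CPM) and Ier2 (132 and 292 CPM), with a median of -0.20 against -0.04 over all genes. Their part in the surface levels of Cxcl1 and Cxcl2 was not tested.

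In stromal cells Cxcl2 was at 92.9 CPM in Beclin1 +/- and 171 CPM in WT, a log2 ratio of -0.88 (-1.0 to -0.76), which was -0.50 when doublets were kept. Ccl2 had a log2 ratio of -0.59 (-0.69 to -0.50) and Cxcl12 of -0.60 (-0.91 to -0.29), the second passing the 20 CPM mean through WT. Both lay at the 1.5-fold line, and 5 and 6 of 11 alternatives put them within it. The tenth of stromal cells with the most Ccl2 held 87.9% of its stromal UMIs in Beclin1 +/- and 94.5% in WT. A thinned Ccl2 UMI was found in 18.6% of Beclin1 +/- and 15.4% of WT stromal cells, opposite in order to the levels. The intervals of these shares overlapped (16.5% to 20.8% and 12.5% to 18.7%). Cxcl1 differed by less, at -0.40 (-0.45 to -0.35), as did Cxcl14, at -0.41 (-0.58 to -0.23), and Csf3, at 0.04 (-0.07 to 0.16). In all, 0 of 6 members compared were higher and 3 lower, where 1.05% of genes were higher and 1.11% lower (2.16% in either direction).

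When the lower limit of depth was made equal by keeping only cells of at least 8089 UMIs, stromal Cxcl12 was at 5.35 CPM in Beclin1 +/- and 25.0 CPM in WT, and Cxcl14 at 26.2 and 73.1 CPM. Their log2 ratios were then -2.21 and -1.48. The limit is the lowest count of the WT library, so it took out Beclin1 +/- cells alone, whose stromal median was 8160 UMIs. It did not make the depths of the libraries equal. Kera-low cells, the richer source of both, had a median of 6693 UMIs in Beclin1 +/- and 9558 in WT, below the 8497 and 12457 of Kera-high cells. The summed level of the 16 immediate early genes in stromal cells was 9775 CPM in Beclin1 +/- and 12474 CPM in WT, and 0 of the 16 differed by 1.5-fold, with a median log2 ratio of -0.37.

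In limbal cells Il1rn was at 52.2 CPM in Beclin1 +/- and 96.7 CPM in WT, a log2 ratio of -0.89 (-1.13 to -0.65), which was -0.38 with doubled gate limits. It was the 1 member of 5 that was lower there and 0 were higher, where 1.32% of genes were lower and 1.02% higher (2.34% in either direction). Under the 20 CPM mean and not compared, Il1rn was higher in Beclin1 +/- in basal (11.9 against 4.99 CPM), wing (12.3 against 8.20 CPM) and surface cells (15.1 against 2.71 CPM). It was lower in stromal cells (1.84 against 3.87 CPM). The summed level of 3 conjunctival keratins (Krt4, Krt13 and Krt19) in limbal cells was 435 CPM in Beclin1 +/- and 928 CPM in WT, and its part in the Il1rn level was not tested. Csf3 had a log2 ratio of 0.44 (0.33 to 0.55). That of Ccl20 was -0.36 (-0.68 to -0.04), and 0.29 without the highest cell of each library, since 1 WT cell held 81 of the 180 limbal UMIs. In wing cells 0 of 3 members differed by 1.5-fold, where 0.654% of genes were higher and 1.19% lower (1.85% in either direction).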

How the data were processed

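UMI counts per gene and cell were used as deposited by the authors, whole numbers with no normalization, made with Cell Ranger 2.1.1 on mm10 per the submitters' processing notes, with no statement of how cells were called. The deposited Beclin1 +/- library held 5155 barcodes with 74363359 UMIs and the WT library 2513 with 54913980. Doublets were scored with Scrublet in scanpy 1.11.5 and removed at 0.8% per 1000 barcodes, which took 213 (4.13%) and 51 (2.03%). Gates were applied to the CPM of each cell, limbal ahead of basal and surface ahead of wing. Counts were summed per library and layer and divided by all UMIs of those cells. Intervals for levels are exact Poisson, for shares exact binomial (Clopper-Pearson), and for ratios exact conditional, all at 95%; a prior of 0.5 counts was added for log2 ratios. A pair was compared at a mean of 20 CPM and counted at 1.5-fold. A level of 0 was drawn at 3 counts. For shares and co-detection each cell was thinned to 5000 UMIs. Genes most alike had the highest Pearson r over cells on log(1 + counts per 10000), ranked by the smaller r of the libraries, among genes of at least 20 CPM in the member's highest layer. Of the listed genes those with at least 20 CPM in any layer of both libraries could be named; Ptprc and markers used to check gates are the exceptions. Coordinates are from GENCODE vM21 by Ensembl identifier. The ratio and interval code was tested on simulated counts. Members, gates and lists were chosen with earlier results of these data known, and the splits by Kera, Krt13, leukocyte markers and the basal gate were chosen after the values were seen. Scaling alternatives used edgeR 4.0.16 for TMM and median-of-ratios size factors.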

Additional observations from a re-analysis of the deposited data

Results flagged for a closer look

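Il1rn in cells outside the gates was at 97.0 CPM in Beclin1 +/- and 102 CPM in WT, in data that the comparisons of layers do not use. In Beclin1 +/- this was above every layer, the highest being limbal cells at 52.2 CPM. The WT interval (96.2 to 109) overlapped that of WT limbal cells (87.5 to 107). By a split made after the values were seen, the 268 Beclin1 +/- and 122 WT ungated cells with at least 1000 CPM of Krt13, a keratin of conjunctival and other wet epithelia, held it at 142 and 191 CPM. The 28 and 8 ungated cells with at least 3 UMIs of leukocyte markers held it at 216 and 176 CPM. The other ungated cells held 62.4 and 42.1 CPM. The genes most like Il1rn over the ungated cells were the protease gene Ctsc (r 0.57 and 0.66), the keratin Krt4 (0.54 and 0.64) and the retinoic acid enzyme Aldh1a3 (0.52 and 0.69).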

How the results depend on the processing

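No paired analysis was possible because each genotype had 1 library, and for the same reason no library could be left out. The number of genes with a common highest layer was 9 or 10 under each of 11 alternatives. Pairs at least 1.5-fold higher in Beclin1 +/-, 2 in the main result, numbered 4 with gate limits doubled, 1 after thinning to 5000 UMIs and 16 with no minimum level; those lower, 7 in the main result, numbered 4 with median-of-ratios scaling. The stromal over basal log2 ratio of Cxcl14 in Beclin1 +/- turned to -0.16 when only cells of at least 8089 UMIs were kept; the cause was not tested. Of 253 ratios between libraries under 11 alternatives, 213 stayed within the counting interval and 40 did not. Leaving out the highest cell, 1 of these alternatives, was chosen after seeing the data. Levels of genes in their highest layer moved more often, as 122 of 220 stayed within the interval and 98 did not. Of 360 ratios between layers under 10 alternatives, 237 stayed within it, 122 did not, and 1, that of Cxcl14 above, was reversed. In wing cells TMM moved the log2 ratios by 0.14 and median-of-ratios by 0.17, and the median of all genes became 0.09 and 0.12 from -0.05. Precision was lowest for surface cells, where 1 cell could hold over 55% of Cxcl2, and for genes of a few CPM.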

Other observations

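Of 40 other cytokine and chemokine genes, 16 reached 20 CPM in a layer of both libraries with the same highest layer. Limbal cells led for 5, among them Cxcl16, a membrane-bound chemokine, at 214 CPM in Beclin1 +/- and 203 CPM in WT, Tslp, which acts on dendritic cells, at 95.5 and 97.7 CPM, and Tgfb1 at 143 and 153 CPM. Basal cells led for Il24 (59.5 and 68.0 CPM) and Mif (868 and 841 CPM). Surface cells led for 3, the interleukin 36 genes Il1f6 (222 and 199 CPM) and Il1f9 (331 and 354 CPM), and Tnf, at 72.7 CPM in Beclin1 +/- and 143 CPM in WT. Stromal cells led for 6, among them Ccl7 (79.9 and 114 CPM), Cxcl10 (31.3 and 65.4 CPM), Il6 (23.7 and 41.1 CPM) and the macrophage growth factors Csf1 (35.3 and 40.5 CPM) and Il34 (31.3 and 27.9 CPM).

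Among cells past no gate, those with at least 3 UMIs of leukocyte markers, a limit chosen after the values were seen, numbered 28 in Beclin1 +/- and 8 in WT. Cxcl2 stood at 6265 CPM in Beclin1 +/- and 4049 CPM in WT in them, above every layer, and they held 1478 of the 3026 ungated Cxcl2 UMIs in Beclin1 +/- and 415 of 1242 in WT. Ccl2 stood at 492 and 409.8 CPM, and Cxcl1 at 1390 and 1561 CPM. The summed level of Cd74, H2-Aa, H2-Ab1 and Cd207, listed as dendritic cell markers, was 27687 and 36197 CPM in them. Which kind of leukocyte these cells were was not tested. The genes most like Cxcl2 over ungated cells were the complement genes C1qa (r 0.57 and 0.59) and C1qb (0.57 and 0.61) and the chemokine Ccl4 (0.57 and 0.55). A list of 5 neutrophil genes summed to 1808 CPM in Beclin1 +/- and 1235 CPM in WT surface cells, nearly all of it S100a9, while Retnlg, Ly6g and the CSF3 receptor gene Csf3r were at 0 there.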
